A study of Rattus norvegicus with 31 samples.

Results

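CA3 expression of aged rats was compared between cognitive phenotypes in 22 of the 31 arrays, which were chosen by the values of control probesets that report how long the labelled RNA was. A probeset is a group of short probes for one transcript, and its value is given on the log2 scale. For each array, the value at the 5′ end was subtracted from that at the 3′ end for the rat Gapdh and beta-actin controls, and arrays were kept where the mean of both differences lay from 1.4 to 1.6. The kept arrays were 13 of 16 from aged unimpaired (AU) rats and 9 of 15 from aged impaired (AI) rats. All rats were aged male Long-Evans rats, and AU or AI was assigned by their search for a hidden platform in a water maze, where AU rats performed within the range of young adults. About a month later each rat had 1 training session with a visible platform that stayed in place among prominent cues (spatial, S) or moved without them (non-spatial, NS). CA3 was dissected by hand after a probe trial, pooled over both hemispheres, and each array held the RNA of 1 rat. The window kept 7 of 8 AU-S, 6 of 8 AU-NS, 5 of 8 AI-S and 4 of 7 AI-NS arrays. All groups here were trained, and each array is a separate rat. A further AI-NS array was left out by the authors.

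CA3 pyramidal neurons receive mossy fibre input and connect back to each other, and this network is thought to store and complete memories of places. Aged Long-Evans rats vary widely in spatial memory, which is why unimpaired and impaired rats of one age can be set against each other. Labelling for these arrays starts at the poly(A) tail and runs towards the 5′ end, so in shortened RNA the 5′ probesets lose signal before the 3′ ones. A larger 3′ minus 5′ difference is therefore read as shorter RNA or a shorter labelled product.

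The 9 arrays outside the window were unevenly placed. Of the 3 AU arrays, 2 lay below the window and 1 above it, while all 6 AI arrays lay above it. The arrays next to the limits were AU-NS replicate 3 at 1.29 and AU-S replicate 8 at 1.41 on the lower side, and AI-S replicate 8 at 1.56 and AI-NS replicate 1 at 1.605 on the upper side. Inside the window the control difference averaged 1.45 ± 0.04 in AU (SD, n = 13) and 1.52 ± 0.04 in AI (SD, n = 9). It ran from 1.41 to 1.52 in AU and from 1.47 to 1.56 in AI. Thus 9 of 13 AU arrays lay below the lowest AI array and 5 of 9 AI arrays lay above the highest AU array, and the matching narrowed the gap between the phenotypes without closing it. Over all 31 arrays the means were 1.45 and 1.59. These values chose the arrays and are given without a test.

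The hexokinase controls, a further pair of 3′ and 5′ probesets, played no part in the choice. Their difference in the kept arrays ran from 1.22 to 1.65 in AU (median 1.42) and from 1.39 to 1.88 in AI (median 1.64). The groups overlapped, with 5 AU arrays below every AI array and 4 AI arrays above every AU array. AU minus AI was -0.23 (exact permutation test, two-sided, p = 0.00462), and leaving out any 1 array gave p from 0.00169 to 0.0113. In a narrow window from 1.45 to 1.55, which held 7 AU and 6 AI arrays, control means were 1.48 and 1.496 and the hexokinase difference was -0.09 (exact permutation test, p = 0.312). The hexokinase difference thus remained smaller in AU inside the window. Its part in the gene differences below was not tested, beyond fits with it as a covariate.

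**Figure D1:**
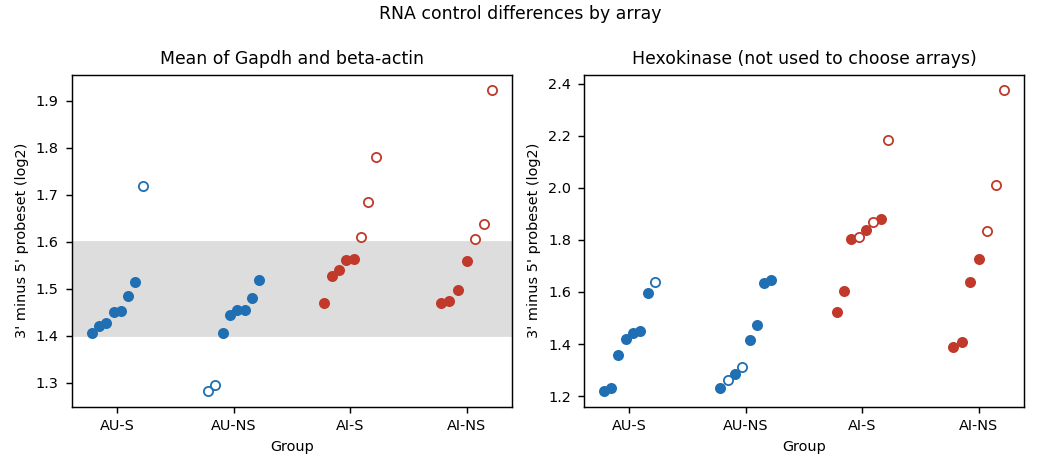
The 3′ minus 5′ log2 difference (vertical axes) of each array by group, with filled points for the 22 kept arrays and open points for the 9 others. The left panel shows the mean of Gapdh and beta-actin with the window from 1.4 to 1.6 in grey, and the right panel shows hexokinase, where kept AI arrays reach 1.88 and kept AU arrays 1.65.

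No probeset passed the test between AU and AI in the matched arrays. limma called 0 of 16204 probesets at an adjusted p under 0.05, a background of 0%, and 0 at 0.1, with a smallest adjusted p of 0.195. SAM, a permutation method that pools the spread differently, also called 0. At an unadjusted p under 0.05 there were 1189 probesets, 859 higher in AU (5.3% of those tested) and 330 lower (2.04%). Over all 31 arrays, fitted in the same way, limma called 893 probesets (5.51%), 810 higher and 83 lower in AU. That fit shares 22 arrays with the matched one, so both are set side by side and not tested against each other. The median half-width of the 95% interval was 0.15 log2 in the matched arrays and 0.13 over all arrays. At that width, a smaller observed difference does not reach an unadjusted p under 0.05, and the width varied between probesets.

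The probesets called over all arrays had smaller differences in the matched arrays. The median AU minus AI difference of the 810 higher probesets was 0.28 over all arrays, 0.17 in the window and 0.10 in the narrow window. For the 83 lower ones it was -0.28, -0.23 and -0.20. With the control difference as a covariate inside the window, the medians were 0.09 for the 810 and -0.21 for the 83. In the 9 arrays outside they were 0.49 and -0.34. Both groups of probesets were chosen on arrays that include all of these.

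The 10 genes with the smallest p among those with positive differences are described first. Nsf, which recycles SNARE proteins by pulling their complexes apart once a vesicle has fused, had 13.52, 13.69 and 13.82 (lowest, median, highest) in AU and 13.28, 13.45 and 13.56 in AI. In 11 of 13 AU arrays it lay above every AI array, and 7 of 9 AI arrays lay below every AU array. The difference was 0.23 (SE 0.04, adjusted p = 0.195), between 0.22 and 0.25 without any 1 array, and 0.17 (SE 0.06) in the narrow window. Its other probesets had 0.18 (SE 0.04) and 0.11 (SE 0.04).

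Ap3d1, a subunit of the AP-3 coat that sorts proteins to lysosomes and some synaptic vesicles, had 9.13, 9.23 and 9.45 in AU and 8.86, 8.99 and 9.15 in AI. Again 11 of 13 AU arrays lay above every AI array. Its difference was 0.25 (SE 0.05, adjusted p = 0.195), 0.19 (SE 0.07) in the narrow window and 0.37 (SE 0.07) in the arrays outside. It was the 1 probeset called over all 31 arrays once the control difference was a covariate, at 0.24 (SE 0.04, adjusted p = 0.0464). Its brighter probeset had 0.03 (SE 0.04).

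Unc13a, a priming factor of the active zone, had 7.97, 8.27 and 8.68 in AU and 7.23, 7.85 and 8.09 in AI. The groups overlapped, with 9 of 13 AU arrays above every AI array. The difference was 0.46 (SE 0.10, adjusted p = 0.219), 0.38 (SE 0.11) in the narrow window and 0.32 with the control difference as a covariate. Among the kept arrays it was 0.56 between AU-S and AI-S and 0.33 between AU-NS and AI-NS.

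The other 7 of the leading increases had differences from 0.20 to 0.34. Cttn, cortactin, which binds branched actin in dendritic spines, had 9.06, 9.31 and 9.52 in AU and 8.78, 8.99 and 9.23 in AI. Its difference of 0.29 (SE 0.06, adjusted p = 0.195) was 0.28 with either covariate. Immt, which shapes the cristae of mitochondria, had 0.20 (SE 0.04) and 0.19 in the narrow window. Mesd, a chaperone of LDL receptor family proteins, had 0.25 (SE 0.05) and 0.24 in the narrow window. Ppp2r2c, a regulatory subunit of protein phosphatase 2A, had 0.34 (SE 0.08) in the window, 0.16 (SE 0.08) in the narrow window and 1.00 (SE 0.14) outside. Plekhb2, a membrane protein of endosomes, had 0.27 (SE 0.06), 0.18 and 0.86 in the same order. Rsrp1, an arginine and serine rich protein, had 0.21 (SE 0.05), and Gmcl1, a protein of the nuclear envelope, had 0.34 (SE 0.08). In all 10 of these genes every kept AU array lay above the AI mean, and in none of them were the groups apart.

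Crem, a transcription factor that answers cyclic AMP and whose short form ICER represses activity-induced genes, led the decreases. It had 6.83, 7.12 and 7.54 in AU and 7.38, 7.46 and 7.60 in AI. In 12 of 13 AU arrays it lay below every AI array, and 4 of 9 AI arrays lay above every AU array. The difference was -0.35 (SE 0.07, adjusted p = 0.195). The value was -0.35 (SE 0.08) in the narrow window, -0.37 with the control covariate, -0.28 (SE 0.14) outside and -0.31 (SE 0.07) over all arrays. It was -0.35 in either task. Its brighter probeset had -0.10 (SE 0.08), and whether the probesets read different Crem transcripts was not tested.

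Mitf, a transcription factor of melanocytes and lysosomal genes, had 4.79, 5.17 and 5.41 in AU and 5.22, 5.42 and 6.06 in AI. The difference was -0.37 (SE 0.09, adjusted p = 0.257), which was -0.55 in the spatial and -0.15 in the non-spatial arrays. Its brighter probeset had -0.23 (SE 0.17). Camta1, a calcium and calmodulin linked transcription activator expressed in neurons, had 11.29, 11.51 and 12.07 in AU and 11.65, 11.84 and 12.23 in AI, a difference of -0.31 (SE 0.09, adjusted p = 0.350). Gcfc2, which takes part in splicing, had -0.23 (SE 0.06), and Gpatch8, a protein with a G-patch domain of RNA processing, had -0.23 (SE 0.07). The probesets named for Mitf and Gcfc2 had mean levels of 5.27 and 5.28, near the smallest probeset mean of 5.00. Utp20, needed to make the small ribosomal subunit, had -0.15 (SE 0.04), and Zfp91, a zinc finger protein with ubiquitin ligase activity, had -0.16 (SE 0.05).

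The remaining 3 decreases were not called over all arrays. Xylt2, which starts the sugar chains of proteoglycans, had -0.36 (SE 0.10) in the window and 0.27 (SE 0.10) outside. Its mean level was also low, at 5.25, and its other probeset had -0.09 (SE 0.06) in the window. Cd320, the receptor for vitamin B12 bound to transcobalamin, had -0.23 (SE 0.07) inside, -0.36 with the control covariate and -0.06 (SE 0.10) outside. Bcar3, an adaptor of adhesion signalling, had -0.24 (SE 0.07) inside and -0.01 (SE 0.14) outside. Of the 10 decreases, 5 had every AU array below the AI mean. In all 20 leading genes the sign was the same in the spatial and the non-spatial arrays, and these genes were chosen on that pooled difference.

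**Figure D2:**
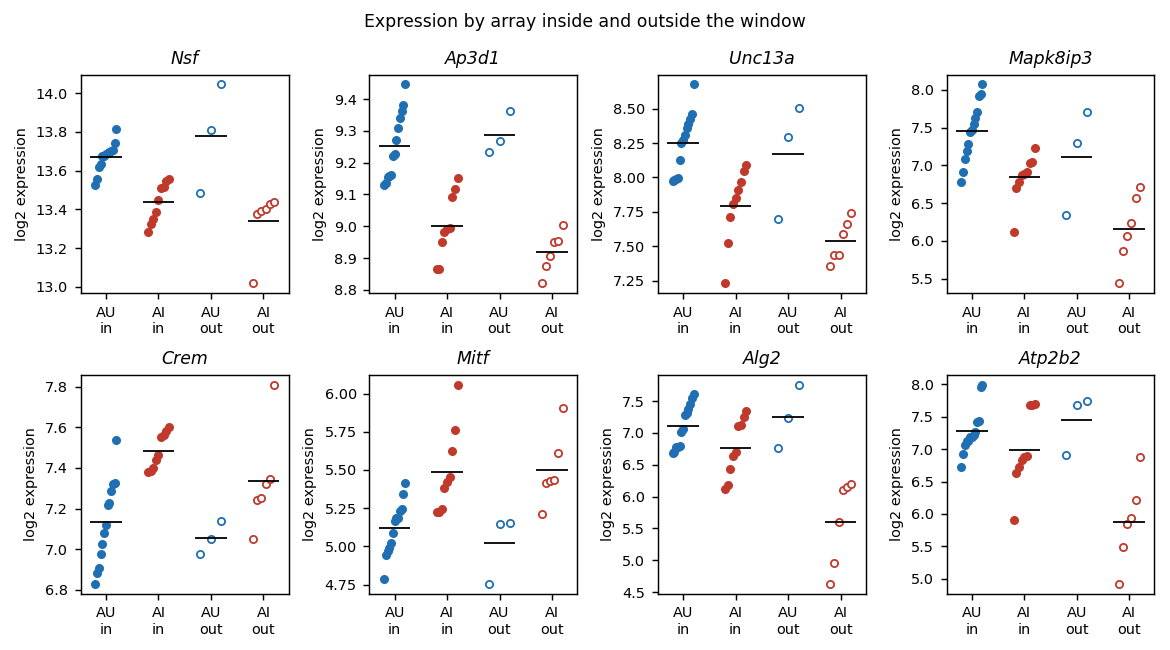
Log2 expression (vertical axes) of 8 genes by array, for AU (blue) and AI (red) inside the window (in, filled, 13 and 9 arrays) and outside it (out, open, 3 and 6 arrays), with lines at the group means. Inside the window the arrays of both groups overlap for all 8 genes, and the lowest AI arrays of Alg2 and Atp2b2 lie outside it.

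The 24 genes that led the comparison over all 31 arrays in an earlier analysis were then followed in the matched arrays, 14 of them higher and 10 lower in AU. None passed an adjusted p of 0.05 in the window. Before adjustment, 21 had a p under 0.05 in the window, where 5.3% of all probesets did and were higher and 2.04% did and were lower, and 8 did in the narrow window, beside 3.34% of all probesets in either direction. All 24 had the same sign in the window as over all arrays and 23 were smaller, with a median of 74.6% of the full difference and a range from 36.6% to 115%. In the narrow window the median was 51.4%. The list was picked on arrays that include these 22, so these counts describe how the values shrank and lend it no independent weight.

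Alg2, Atp2b2, Lin7c and Paqr8 kept the smallest shares of their difference. Alg2, a mannosyltransferase of N-glycan assembly, had 6.69, 7.07 and 7.62 in AU and 6.11, 6.70 and 7.34 in AI inside the window. The groups overlapped widely there, with 4 AU arrays above every AI array. Outside, the lowest AI array was at 4.63 and the AU arrays ran from 6.76 to 7.76, above every AI array there. Its AU minus AI difference was 0.83 over all arrays, 0.34 (SE 0.16, adjusted p = 0.662) in the window, -0.02 (SE 0.17) in the narrow window and 1.64 (SE 0.38) outside.

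Atp2b2, a pump that removes calcium from neurons, had 0.76 over all arrays, 0.29 (SE 0.19) in the window, 0.07 (SE 0.25) in the narrow window and 1.56 (SE 0.37) outside. Lin7c, a scaffold of synaptic and epithelial junctions, had 0.75, 0.28 (SE 0.20), -0.15 (SE 0.14) and 1.69 (SE 0.36) in the same order. Paqr8, a membrane receptor for progesterone, had 0.75, 0.35 (SE 0.13), 0.21 (SE 0.17) and 1.46 (SE 0.23). Gigyf2, a repressor of translation, had 0.28, 0.16 (SE 0.07), 0.04 (SE 0.09) and 0.57 (SE 0.11). Alg2, Atp2b2 and Lin7c had -0.15 (SE 0.14), -0.10 (SE 0.22) and -0.002 (SE 0.25) with the control covariate inside the window. The confidence interval of each of these values spans both signs, so the negative values do not show a reversal.

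Other genes of this list kept more of their size. Mapk8ip3, a kinesin adaptor that also holds kinases of the JNK cascade together, had 6.78, 7.47 and 8.07 in AU and 6.12, 6.88 and 7.23 in AI inside the window, with 9 of 13 AU arrays above every AI array. Its difference was 0.62 (SE 0.15, adjusted p = 0.257) in the window, 0.45 (SE 0.20) in the narrow window, 0.56 with the control covariate, 0.30 with the hexokinase covariate and 0.83 over all arrays. Cd2bp2, a protein of the spliceosomal U5 particle, had 0.41 (SE 0.10, adjusted p = 0.221) inside and 0.47 over all arrays, with 10 of 13 AU arrays above every AI array. Ccdc127, a coiled-coil protein, had 0.73 (SE 0.19) inside and 0.74 over all arrays.

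Mpp3, a scaffold of the MAGUK family, had 0.57 (SE 0.15) inside, 0.37 in the narrow window and 0.25 with the control covariate. Pclo, piccolo, a protein of the presynaptic active zone, had 0.31 (SE 0.08), 0.15 and 0.16. Pdha1, the catalytic alpha subunit of pyruvate dehydrogenase, had 0.23 (SE 0.06), 0.16 and 0.15. Clic4, an intracellular chloride channel protein, had 0.18 (SE 0.07), 0.18 and 0.17. These values came from 13 AU and 9 AI arrays, and none of the 4 genes passed the adjusted threshold.

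Among the decreases, Clic2, of the same family as Clic4, had -0.40 (SE 0.12) inside and -0.41 over all arrays. Onecut2, a transcription factor, was the 1 gene that was larger inside, at -0.50 (SE 0.16) against -0.44, and it had -0.64 (SE 0.20) in the narrow window. Alb, albumin, which is made by the liver and carried in blood, had -0.53 (SE 0.18) inside, -0.65 over all arrays and -0.18 with the hexokinase covariate. Grm8, a presynaptic glutamate receptor, had -0.21 (SE 0.08) inside and -0.71 (SE 0.14) outside. Ccdc59, a partner of a lung transcription factor, had -0.29 (SE 0.09), Prkd3, a protein kinase D, had -0.30 (SE 0.11), Tlk2, a kinase of chromatin assembly, had -0.28 (SE 0.12), Son, a splicing cofactor, had -0.24 (SE 0.09), and Plag1, a zinc finger transcription factor, had -0.23 (SE 0.14). Narrow-window values of Son and Ccdc59 were -0.07 and -0.16.

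**Figure D3:**
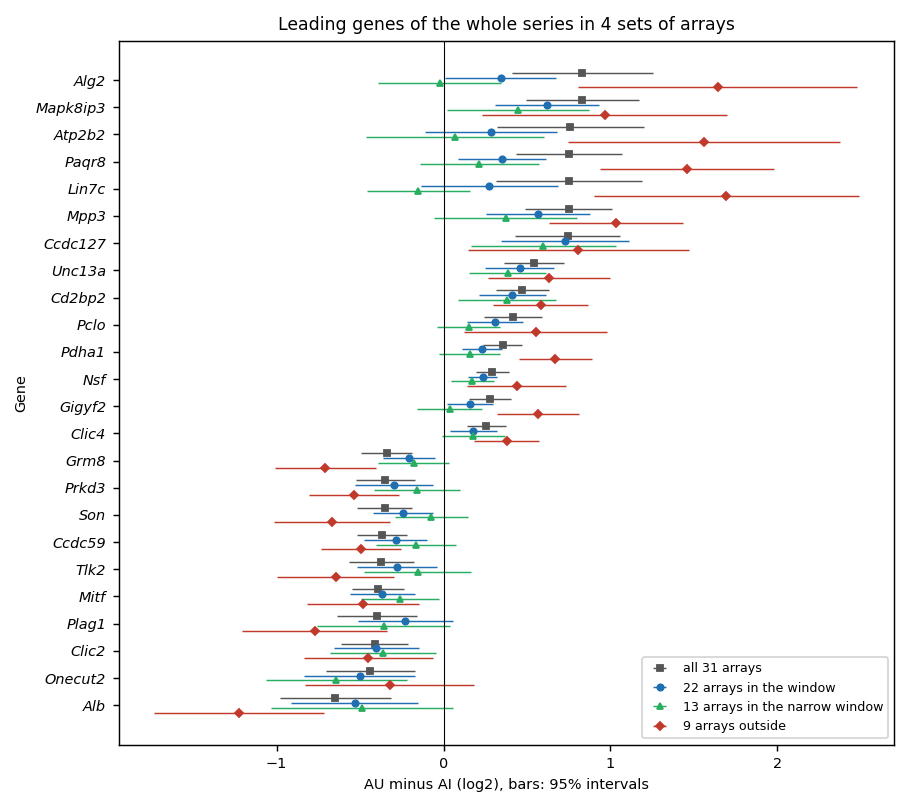
AU minus AI log2 difference (horizontal axis) with 95% intervals for the 24 genes that led the comparison over all arrays, in all 31 arrays, the 22 kept arrays, the 13 arrays of the narrow window and the 9 arrays outside. The 9 arrays outside share none with the kept arrays or the narrow window, and every other pair of sets overlaps. Alg2 goes from 0.83 over all arrays to -0.02 in the narrow window, while Clic2 has -0.41 over all arrays and -0.40 in the window.

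In genes with more than 1 probeset, the one named above was mostly not the brightest. Of the 41 probesets of the leading genes and of the series list, 29 belong to genes with more than 1 probeset, and 3 of the 29 are the brightest of their gene. In the other 26 genes the brightest probeset had a difference nearer to 0 in every case. It kept the sign of the named one in 23 of them. The brightest probesets of Gigyf2, Son and Tlk2 had the opposite sign, at -0.01, 0.02 and 0.06. The median size inside the window was 0.27 for the probeset named and 0.07 for the brightest one, of which 2 had an unadjusted p under 0.05 (Nsf and Cttn). For Camta1 the values were -0.31 and -0.02, for Paqr8 0.35 and 0.02, and for Rsrp1 0.21 and 0.01. The named probesets were picked for small p-values and the brightest were not, so the gap between them is given as a description. The position of these probesets along their transcripts was not analysed here.

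Outside the window, where 3 AU arrays were set against 6 AI arrays, limma called 364 probesets (2.25%), 330 higher and 34 lower in AU, and SAM called 275. Without AU-NS replicate 3 the count was 0, without AU-NS replicate 2 it was 1, and without AI-NS replicate 5, AI-S replicate 4 or AI-S replicate 6 it was 20, 118 or 158. Ap3d1, Plekhb2, Ppp2r2c, Mpp3, Gigyf2, Paqr8, Cd2bp2 and Pdha1 were among the genes called higher, and Alb, Grm8 and Ccdc59 among those called lower. The control difference spread more widely there, from 1.28 to 1.72 in AU and from 1.605 to 1.92 in AI.

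Whether the phenotype difference changed from outside to inside the window was tested as an interaction over all 31 arrays. At an adjusted p under 0.05 limma called 0 probesets (0%), with a smallest adjusted p of 0.0503 and 1783 at an unadjusted p under 0.05. SAM was not run for this test. At an adjusted p under 0.1 there were 118 (0.728%), of which 111 were more negative inside the window and 7 more positive. This count was 25 (4 more positive and 21 more negative) after median centring and 1 with the control difference as a covariate. The wider window from 1.35 to 1.65 gave 0, whereas the narrow window gave 272 (13 more positive and 259 more negative). Adding the task to the fit gave 116, and treating arrays that share a replicate number as a block gave 121. At an adjusted p under 0.05 the narrow window gave 79 probesets and the block 22. Plekhb2 (-0.60), Ppp2r2c (-0.66) and Paqr8 (-1.11) had an adjusted p of 0.061, and Pdha1 (-0.44) had 0.076. The interaction of Dnajb6, a co-chaperone, was 1.42 (adjusted p = 0.088), with an AU minus AI difference of 0.46 inside and -0.96 outside. For Crem the interaction was -0.07 (adjusted p = 0.945).

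Across the 16204 probesets, the differences inside and outside the window had a Pearson correlation of 0.45. No array is shared between these sets, but the probesets are not independent, and both sets share the design in which AI arrays have the larger control difference. The median size of a difference was 0.06 inside and 0.13 outside.

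**Figure D4:**
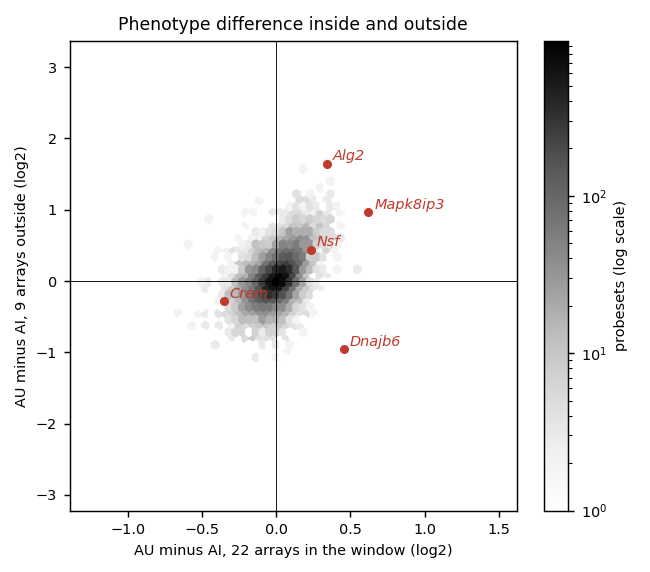
AU minus AI log2 difference of every probeset in the 22 kept arrays (horizontal axis) and the 9 other arrays (vertical axis), with darker cells for more probesets on a log scale and 5 genes in red. Alg2 lies at 0.34 inside and 1.64 outside, Crem lies at -0.35 and -0.28, and Dnajb6 lies at 0.46 and -0.96.

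Most genes of synaptic release had positive differences in the window, and none passed the adjusted threshold. Of the 30 measured genes of vesicle release (SNARE proteins, the active zone and priming factors), 28 had positive differences, with a median of 0.07 beside 0.01 over all probesets, of which 54.8% were positive. In this group 8 (26.7%, beside 5.3% of all probesets) had an unadjusted p under 0.05, all higher, led by Unc13a and by the brightest Nsf probeset at 0.18 (SE 0.04). The median was 0.12 over all arrays, 0.05 in the narrow window and 0.02 with the control difference as a covariate, where 2 of the 30 had an unadjusted p under 0.05. Of the 28 genes of clathrin coats and vesicle retrieval, 27 were positive, with a median of 0.06 in the window, 0.02 in the narrow window and 0.01 with the covariate. Sh3gl2, endophilin A1, which bends membrane during retrieval, had 11.04, 11.22 and 11.46 in AU and 10.59, 10.96 and 11.44 in AI, a difference of 0.26 (SE 0.08, adjusted p = 0.356). Ap1g1, a subunit of the AP-1 coat, had 0.12 (SE 0.05).

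Rab GTPases, the switches of vesicle traffic, had a median of 0.02 over 37 genes, with 5 higher (13.5%, beside 5.3% of all probesets) and 1 lower (2.7%, beside 2.04%) at an unadjusted p under 0.05. Rab6b and Rab18 had 0.13 (SE 0.05) and 0.12 (SE 0.04). Kinases and scaffolds of synaptic plasticity had a median of 0.03 over 39 genes, with 4 higher (10.3%) and 1 lower (2.56%) against the same shares, among them Mapk8ip3 and Mapk9, a JNK kinase, at 0.21 (SE 0.07) in the window and 0.08 in the narrow window. Glutamate receptors had a median of 0.00 over 15 genes. Grm7, a presynaptic receptor like Grm8, had 0.29 (SE 0.12), and in AU its lowest array was at 8.18 while in AI 1 array was at 7.09.

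The study took genes of GABA and glycine signalling by class and by expression above a cut-off in these same arrays. They are thus no independent evidence. Of the 16 measured here, 13 had positive differences. Their median was 0.05, beside 0.04 over all arrays and 0.02 in the narrow window, and 3 (18.8%, beside 5.3% of all probesets) had an unadjusted p under 0.05, all higher. With the control covariate none of the 16 did. Gad2, an enzyme that makes GABA, had 8.86, 9.35 and 9.88 in AU and 8.71, 8.99 and 9.52 in AI. The difference was 0.29 (SE 0.13, adjusted p = 0.625), and 0.37 (SE 0.15) in the narrow window. Gabrg1, a gamma subunit of the GABA-A receptor, had 0.17 (SE 0.07, adjusted p = 0.540) in the window, 0.10 (SE 0.09) in the narrow window and 0.69 outside. Glrb, the beta subunit of the glycine receptor, had 0.07 (SE 0.03).

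At their brightest probesets the other genes of that list had no unadjusted p under 0.05. Over all 27 probesets of the list 6 did, all higher, beside 5.3% of all probesets tested. Gad1, the other enzyme that makes GABA, had 0.10 (SE 0.06) at its brightest probeset and 0.33 (SE 0.10, adjusted p = 0.339) at a dimmer one. Among GABA-A receptor subunits, Gabra2 had 0.02, Gabra4 0.07, Gabra5 0.06, Gabrb1 0.05, Gabrb2 0.03 and Gabrd a value within 0.01 of 0. The GABA-B receptor subunits Gabbr1 and Gabbr2 had -0.01 and 0.10 at their brightest probesets. A dimmer Gabbr2 probeset had 0.36 (SE 0.09, adjusted p = 0.284) in the window and 0.23 (SE 0.10) in the narrow window, and dimmer Gabbr1 probesets had 0.12 (SE 0.14) and 0.93 (SE 0.47). Glra2, a glycine receptor subunit, had 0.23 (SE 0.19). The anchoring proteins Gphn (gephyrin), Nptn (neuroplastin) and Rdx (radixin) had -0.02, 0.03 and 0.00 at their brightest probesets. The 4 other Rdx probesets ran from -0.02 to 0.26 (SE 0.09, adjusted p = 0.493). Gabra4 changed sign with the narrower match, at 0.23 (SE 0.10) over all arrays, -0.16 (SE 0.12) in the narrow window and 0.59 (SE 0.17) outside. Kit, a receptor kinase of some interneurons, had 0.28 (SE 0.10), and interneuron markers as a whole had a median of 0.02 over 13 genes with 7 positive.

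The study names 6 further genes for their differences in these arrays, again no independent evidence, and 4 of them were measured. At the brightest probeset none of the 4 had an unadjusted p under 0.05. Over all 10 probesets of these genes 4 did, all higher, beside 5.3% of all probesets tested. All of them were of App or Ntrk2. App, the amyloid precursor protein, had 14.04, 14.17 and 14.32 in AU and 14.05, 14.10 and 14.33 in AI at its brightest probeset, where the groups spanned about the same range. The difference there was 0.04 (SE 0.04, adjusted p = 0.869), and its dimmer probesets had 0.11 (SE 0.04, adjusted p = 0.540) and 0.25 (SE 0.07, adjusted p = 0.350). Both of these were called over all 31 arrays, at 0.15 and 0.41, and had 0.08 (SE 0.06) and 0.18 (SE 0.10) in the narrow window. Snap25, a SNARE protein of synaptic vesicle fusion, had 0.07 (SE 0.03), and Ntrk2, the receptor for BDNF, had 0.02 (SE 0.05) at its brightest probeset and 0.04, 0.13 (SE 0.06) and 0.16 (SE 0.04, adjusted p = 0.284) at the others. Adam10, the main alpha-secretase, had 0.02 (SE 0.12) in the window and -0.19 (SE 0.14) in the narrow window at its brightest probeset. That probeset had 0.35 (SE 0.15) over all arrays and 0.93 (SE 0.29) outside. The dimmer one had 0.16 (SE 0.12), 0.01 (SE 0.14) and 0.70 (SE 0.20) in the window, narrow window and all arrays. This dimmer probeset was called over all arrays (limma, adjusted p = 0.0383). The wider list of amyloid precursor processing had a median of 0.03 over 16 genes, led by Apba2, an adaptor that binds the precursor, at 0.14 (SE 0.09), and by Mapt, the microtubule protein tau, at 0.09 (SE 0.06).

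Of 29 measured genes switched on by neuronal activity, 20 had negative differences, with a median of -0.03. An unadjusted p under 0.05 was found for 2 of them, both lower (6.9%, beside 2.04% of all probesets), and for none higher (beside 5.3%). Per1, a clock gene induced by cyclic AMP and glucocorticoids, had 8.01, 8.62 and 9.13 in AU and 8.39, 8.99 and 9.33 in AI. The difference was -0.30 (SE 0.12, adjusted p = 0.563) in the window, -0.46 (SE 0.16) in the narrow window and 0.25 outside. Dusp1, a phosphatase that turns off MAP kinases, had 8.17, 8.98 and 9.54 in AU and 8.74, 9.54 and 10.11 in AI, a difference of -0.43 (SE 0.17, adjusted p = 0.563). Both also stand among the 16 measured genes of glucocorticoid response, of which 12 were negative (median -0.07).

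Groups of basic cell functions had medians from -0.06 to 0.07. Ribosomal proteins had a median of -0.06 over 39 genes with 36 negative and none with an unadjusted p under 0.05, and Rpl12 and Rps28 had -0.17 (SE 0.09) and -0.14 (SE 0.08). Respiratory chain subunits had -0.04 over 67 genes with 52 negative, although Sdha, of complex II, had 0.13 (SE 0.04) and Atp5me, of the ATP synthase, had -0.16 (SE 0.09). Glycolysis genes had 0.07 over 28 genes with 24 positive, led by the phosphofructokinases Pfkp at 0.09 (SE 0.04) and Pfkm at 0.10 (SE 0.04). Chaperones had 0.05 over 36 genes, with Dnaja1 at 0.11 (SE 0.04). Proteasome subunits had 0.01 over 33 genes, with Psmd4 at 0.15 (SE 0.06) and Psmd7 at 0.09 (SE 0.04). Splicing factors had 0.01 over 54 genes, with Srsf1 at 0.08 (SE 0.03) and Hnrnpd at 0.11 (SE 0.05). With the control difference as a covariate the medians were -0.10 for ribosomal proteins, -0.11 for the respiratory chain, 0.00 for glycolysis, -0.03 for chaperones, -0.05 for the proteasome and 0.01 for splicing factors, so those of chaperones and the proteasome turned.

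**Figure D5:**
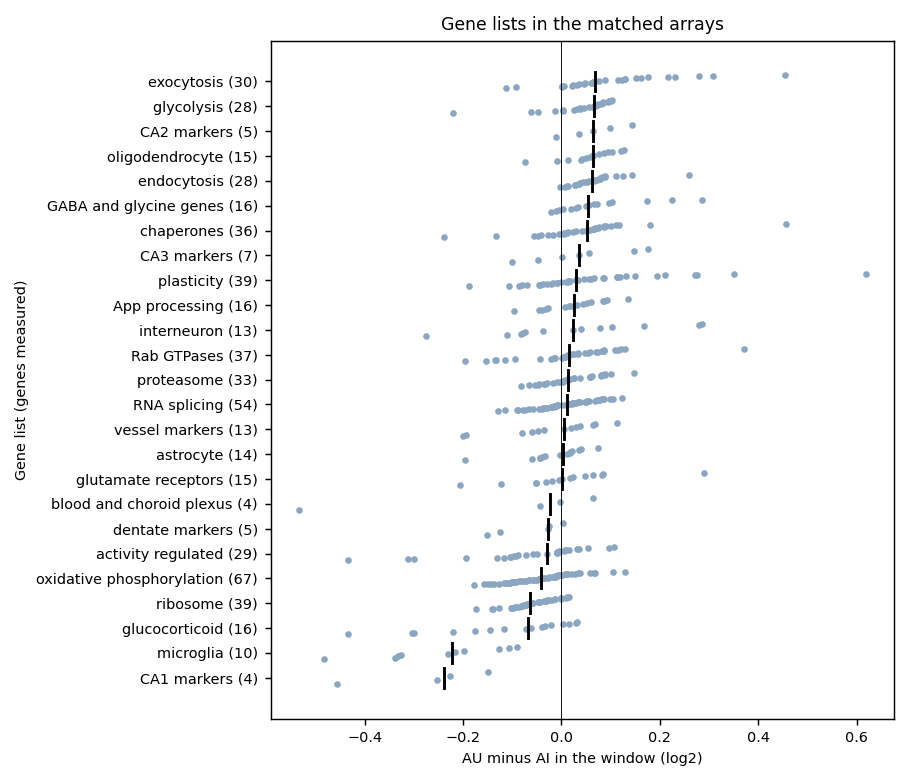
AU minus AI log2 difference in the 22 kept arrays (horizontal axis) of each gene of 25 lists, at its brightest probeset, with black bars at the list medians and the number of genes in parentheses. Medians run from -0.24 for 4 CA1 markers to 0.07 for 30 genes of vesicle release, beside 0.01 over all probesets.

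Markers of neighbouring fields and of other cells were read in the same arrays, since a hand dissection of CA3 can take in both. CA3 markers were measured in 7 of 10 genes, among them Grik4, Bok and Nnat, with a median difference of 0.04 and a mean level per array from 10.55 to 10.78 in AU and from 10.39 to 10.69 in AI. Of these 7 genes, 5 had positive and 2 negative differences, from -0.10 to 0.18, and none had an unadjusted p under 0.05. Those with the smallest p, Mas1 and Nnat, had 0.18 (SE 0.10) and 0.15 (SE 0.09). All 4 measured CA1 markers had negative differences in the window, with a mean level from 8.65 to 10.05 in AU and from 9.49 to 10.62 in AI. Their median difference was -0.24 in the window, -0.35 in the narrow window, -0.08 over all arrays and 0.36 outside. Pou3f1, a transcription factor of CA1, had -0.46 (SE 0.21) and Mpped1 had -0.25 (SE 0.14). For both, AI-NS replicate 4 was the highest AI array. Markers of dentate granule cells, from 9.41 to 10.28 in AU and from 9.46 to 10.43 in AI, had a median of -0.03 over 5 genes, with Calb1 at -0.15 (SE 0.11) and C1ql3 at -0.12 (SE 0.11). CA2 markers had 0.06 over 5 genes, with Pcp4 at 0.14 (SE 0.12) and Amigo2 at 0.10 (SE 0.11).

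All 10 measured microglial markers, of 16 on the list, had negative differences, with a median of -0.22 in the window, -0.12 in the narrow window and 0.06 outside. Aif1, a calcium-binding protein of microglia, had 7.63, 7.84 and 8.56 in AU and 7.49, 8.11 and 9.13 in AI, a difference of -0.33 (SE 0.15) in the window and -0.05 in the narrow window. C1qc, a chain of complement C1q, had -0.33 (SE 0.19). The mean marker level ran from 8.63 to 9.40 in AU and from 8.65 to 9.99 in AI with medians of 8.92 and 8.89, so the groups overlapped and the highest array was AI. In bulk tissue, fewer cells of a type and less RNA per cell cannot be told apart.

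Oligodendrocyte genes had a median of 0.06 over 15 genes, with Mbp and Mal of myelin at 0.06 (SE 0.03) and 0.12 (SE 0.09). Astrocyte genes had 0.00 over 14 genes, with Cyp4f4 at -0.20 (SE 0.12) and Acsbg1 at 0.07 (SE 0.05). Vessel genes had 0.01 over 13 genes, with Pdgfrb at 0.06 (SE 0.06) and Flt1 at -0.08 (SE 0.08). Of the list for blood and choroid plexus 4 of 17 genes were measured, with Alb as above and Enpp2 at 0.06 (SE 0.09). The part of any of these cells in the differences above was not tested beyond a fit with the dentate and CA1 scores, which also called 0 probesets.

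Whole profiles were compared next, and the distance between phenotypes did not pass the test in the matched arrays. With 1 minus Pearson's correlation as the distance, pairs of an AU and an AI array lay 0.0134 apart on average, pairs of AU arrays 0.0125 and pairs of AI arrays 0.0140. The difference of between and within was 0.00041 (one-sided exact permutation test, p = 0.162). By mean distance, 11 of 13 AU arrays were closer to their own phenotype than to the opposite one, as were 3 of 9 AI arrays. In the narrow window the difference was 7.7e-05 (exact permutation test, p = 0.343). With a window 1.5 times as wide, from 1.35 to 1.65, which added 3 AI arrays and no AU array, it was 0.00059 (permutation test, p = 0.0435) and limma called 89 probesets, 86 higher and 3 lower in AU.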

How the data were processed

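The deposited values are log2 intensities that the authors made with gcRMA (version not given in the sources used here) from Affymetrix rat arrays. The authors' lower limit on intensity was 4 on the log2 scale. Applied here to probeset means, it removed none of the 16204 probesets, whose smallest mean is 5.00. The arrays carry more probesets than these deposited values hold. List genes with no probeset of 1 symbol among them count as not measured. gcRMA subtracts background by probe sequence and equalises array distributions. Of the probesets, 12242 carry 1 gene symbol, 293 several and 3669 none, from the platform annotation.

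AU and AI were compared with limma 3.58.1 in R 4.3.3 on the log2 values, with Benjamini-Hochberg adjustment over all probesets and a threshold of 0.05. SAM was coded by hand with 100 relabellings. Single values were tested by permuting arrays. Replicates are separate rats, and the number of arrays limits precision.

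The genes named are the 10 with the smallest p in each direction, since none passed, from each list the 2 genes of smallest p at their brightest probeset, the 24 leading genes of the series, and every measured gene of the study's lists. The arrays, members and lists were chosen with earlier results of these data known. Alternatives were other windows, controls, covariates, normalizations, tests and each array left out.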

Additional observations from a re-analysis of the deposited data

Results flagged for a closer look

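Single arrays stood apart from the other 8 AI arrays of the window in 7 of the 103 groups examined by Dixon's test, which flags about 1 group in 20 by chance. The CA1 markers Pou3f1 (10.155) and Mpped1 (12.251) were highest in AI-NS replicate 4. In AI-S replicate 2, Mapk8ip3 (6.115) and Glra2 (5.924) were lowest and Rps28 (12.182) was highest. Grm7 (7.087) was lowest in AI-S replicate 7, and Pfkm (11.823) was lowest in AI-S replicate 5. Without 1 array at a time the difference of Mapk8ip3 ran from 0.53 to 0.68, and that of Glra2 from 0.03 to 0.29. It ran from 0.16 to 0.34 for Grm7, from 0.07 to 0.11 for Pfkm and from -0.17 to -0.08 for Rps28. For Pou3f1 it ran from -0.54 to -0.32 and for Mpped1 from -0.30 to -0.16.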

How the results depend on the processing

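The count of 0 probesets in the matched arrays was recomputed under 23 settings other than leaving out an array, and 19 of them also gave 0. The exceptions were 893 over all 31 arrays without matching, 89 in the window 1.5 times as wide, 1 (Ap3d1) over all 31 arrays with the control difference as a covariate and 1 (Nsf, adjusted p = 0.0471) with a trended and robust prior. Leaving out any 1 of the 22 arrays gave 0 each time, with a smallest adjusted p from 0.0794 to 0.381 and 948 to 1655 probesets at an unadjusted p under 0.05, a count that was 1189 in all kept arrays and 674 with both covariates. The count outside the window, 364, ran from 0 to 394 without 1 array. The interaction count of 0 was 79 with the narrow window. The distance was 0.00059 (permutation test, p = 0.0435) in the wider window and from 0.00023 to 0.00068 without 1 array, and the hexokinase difference was -0.0949 in the narrow window and from -0.262 to -0.201 without 1 array. Replicate numbers did not pair arrays: over 7 same-numbered AU and AI pairs of one task, deviations correlated from -0.289 to 0.0349. With the number as a replicate block, 0 probesets were called in the window (854 at an unadjusted p under 0.05), 0 outside and 22 for the interaction. The narrow window (from 1.45 to 1.55) with a covariate or with the spread of all arrays, both covariates together, and the block outside and for the interaction were chosen after seeing the data. The number of arrays limits the precision, and the cause of each change was not tested.

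Of 4584 values of 102 gene probesets under these settings, 4379 kept their sign and side of the threshold, 72 passed the threshold (51 of them over all 31 arrays and 19 in the wider window) and 133 changed sign, while 79 probesets never changed sign. With the control difference as a covariate, the values were Apba2 -0.0055, Amigo2 -0.0451, Mas1 -0.0257, Calb1 0.0203, Alg2 -0.1539, Atp2b2 -0.1048, Lin7c -0.0021, Adam10 -0.1815, Gabra2 -0.0252, Gabra4 -0.1562, Gabrb1 -0.0075, Gabrd 0.0353 and Nptn -0.0135. With both control and hexokinase covariates, the values were Amigo2 -0.0722, Calb1 0.1218, Alg2 -0.1906, Atp2b2 -0.1077, Lin7c -0.1982, Gigyf2 -0.0258, App -0.0022, Adam10 -0.2935, Gabra2 -0.0199, Gabra4 -0.1979, Gabrd 0.0181, Glra2 -0.1312 and Nptn -0.0059. With the narrow window with the control covariate, the values were Amigo2 -0.0904, Mas1 -0.0056, Calb1 0.0104, Alg2 -0.1398, Atp2b2 -0.0563, Lin7c -0.1021, Adam10 -0.2046, Gabra2 -0.0535, Gabra4 -0.1649, Gabrb1 -0.0109, Gabrd 0.0377 and Nptn -0.0173. With the hexokinase covariate, the values were Calb1 0.0563, Rpl12 0.0116, Lin7c -0.1098, App -0.0121, Adam10 -0.2163, Ntrk2 -0.0173, Gabbr1 0.0342, Gabra4 -0.0628 and Glra2 -0.0776. With the narrow window, with its own spread or that of all 31 arrays, the values were Amigo2 -0.0852, Alg2 -0.0242, Lin7c -0.1508, Adam10 -0.1933, Gabra2 -0.0917, Gabra4 -0.1585 and Gabrd 0.0195. With matching on hexokinase alone, the values were Atp2b2 -0.0124, Adam10 -0.0807, Ntrk2 -0.0, Gabbr1 0.0668, Gabra2 -0.0985, Gabra4 -0.056 and Gabrd 0.0038. With all 31 arrays with the control covariate, the values were Adam10 -0.0344, Ntrk2 -0.013, Gabbr1 0.0653, Gabra2 -0.0741, Gabrb1 -0.0287, Gabrb2 -0.0141 and Gabrd 0.0039. With all 31 arrays without matching, the values were Ntrk2 -0.0068, Gabbr1 0.0274, Gabra2 -0.0252, Gabrb2 -0.0232, Gabrd 0.0168, Gphn 0.0244 and Rdx -0.0111. With matching on beta-actin alone, the values were Pdgfrb -0.0145, Adam10 -0.114, Gabbr1 0.0396, Gabra2 -0.1392 and Gabra4 -0.0735. With dentate and CA1 scores as covariates, the values were Ntrk2 -0.0058, Gabbr1 0.0111, Gabra2 -0.0535 and Rdx -0.0023. With the wider window, the values were Ntrk2 -0.0022, Gabbr1 0.0222, Gabra2 -0.0168 and Rdx -0.0169. With array weights, the values were Gabbr1 0.0098 and Rdx -0.0231. With quantile normalization, the values were Gabra2 -0.0006 and Rdx -0.0156. With matching on Gapdh alone, the values were Gabbr1 0.0376 and Gabrd 0.03. With the replicate block, the value was Adam10 -0.0009. With median centring, the value was Rdx -0.0005. Leaving out 1 array at a time turned the sign of Adam10 (from -0.0698 to 0.1014), Gabbr1 (from -0.0484 to 0.0306), Gabra2 (from -0.0358 to 0.0743), Gabrd (from -0.0314 to 0.0107), Ntrk2 (from -0.0017 to 0.0389), Rdx (from -0.0261 to 0.0289).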
